A study of Mus musculus with 12 samples.

Results

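Interferon response genes are the genes that cells switch on when interferons bind their receptors. The set described here holds 38 mouse genes, chosen by name as genes induced by type I or type II interferon. All 38 were found among the 21792 gene symbols of the table. They comprise 4 transcription factors, 3 nucleic acid sensors, 3 genes of the ISG15 system, 3 IFIT genes, 2 Mx GTPases, 5 OAS genes, 8 other antiviral effectors, 7 interferon inducible GTPases and 3 antigen processing genes. All 38 passed the filter on low values, a mean of at least 1, as did 21322 genes in all.

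Their RNA was measured by RNA sequencing in 12 colon tumours of FvB mice, 3 libraries per genotype. Tumours were double deficient (lacking both miR-34a and p53 in intestinal epithelial cells), p53 deficient, miR-34a deficient or wt. Both deletions are restricted to intestinal epithelial cells, so other cells of the tumour keep the genes; the Cre line is not named in the labels. All mice, wt included, had received the colon carcinogen azoxymethane at 10 mg/kg once a week for 6 weeks, and tumours were taken at week 16 after the first injection. The age of the mice is not given in the sources used here, and neither is whether the libraries of a genotype come from separate animals, so that p-values measure the spread between these libraries, which may be technical.

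Type I interferons signal through Ifnar1 and Ifnar2, type III through Ifnlr1 and Il10rb, and type II interferon (Ifng) through Ifngr1 and Ifngr2. Types I and III activate a complex that includes Stat2 and Irf9 and binds the interferon-stimulated response element (ISRE), whereas type II acts mainly through the gamma-activated site (GAS). The induced genes block viral replication, degrade RNA, tag proteins with ISG15 and raise antigen presentation. In the intestinal epithelium, type III interferon is a main antiviral signal.

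Promoter sequences of RefSeq (GRCm38.p6, 250 bases before to 50 after each gene's start) were matched to 29 of the 38 genes. An ISRE core, GAAANNGAAA on either strand, occurred in the windows of 16 of the 29 (55.2%), against 1079 of 27025 genes with a window (3.99%). A GAS core, TTCNNNGAA, which reads the same on both strands, occurred in 7 of the 29 (24.1%), against 2582 of 27025 genes (9.55%). The cores overlap each other in some promoters, as in Bst2. The stretches below are shown because these genes, of different roles, carry the patterns described further on; each runs 5′ to 3′ on the gene's own strand. Capitals mark the ISRE core or its reverse complement, and in the last stretch the GAS core.
Isg15, chr4:156200850-156200909, minus strand: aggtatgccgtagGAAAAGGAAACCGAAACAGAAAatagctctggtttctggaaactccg
Ifit1, chr19:34640779-34640838, plus strand: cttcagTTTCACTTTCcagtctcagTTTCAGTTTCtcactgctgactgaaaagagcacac
Rsad2, chr12:26456538-26456597, minus strand: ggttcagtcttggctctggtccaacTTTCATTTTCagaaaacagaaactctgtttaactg
Oas3, chr5:120777700-120777759, minus strand: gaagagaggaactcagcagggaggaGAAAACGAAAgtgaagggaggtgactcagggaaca
Bst2, chr8:71537562-71537621, minus strand: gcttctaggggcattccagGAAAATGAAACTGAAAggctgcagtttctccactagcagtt
Irf1, chr11:53769898-53769957, plus strand: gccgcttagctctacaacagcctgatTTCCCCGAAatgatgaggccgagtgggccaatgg

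The first of these, Isg15, held overlapping ISRE cores in tandem, and Ifit1 held separate ones. The windows of Irf7, Irf9, Herc6, Oasl1, Oasl2, Cmpk2, Ifi44, Xaf1, Psmb9 and Tap1 held neither motif. A match is a description of the letters and does not show that a factor binds there. Nor does a window without a match show that the gene lacks such an element.

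The deleted miR-34a has the mature form mmu-miR-34a-5p, transcribed from chr4:150068473-150068494 on the plus strand (RefSeq, GRCm38.p6), with the seed, bases 2 to 8, in capitals.
mmu-miR-34a-5p: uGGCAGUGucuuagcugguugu
The complement of that seed, CACTGCC, was found in the annotated 3′ untranslated region (GENCODE M21, GRCm38) of 3 of the 38 interferon response genes (7.89%), against 2668 of 16120 genes of the table with such a region (16.6%). The 3 were Gbp4, Gbp7 and Igtp. The Xaf1 region held no such site.

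The values are normalized expression values that the authors rounded to whole numbers, so read depth is unknown and no counting error can be given. Trp53, the targeted gene of the p53 deletion, stood at 924, 504 and 724 in double deficient tumours and at 598, 401 and 576 in p53 deficient tumours. In the other 6 libraries it lay between 3466 and 5120. Upper quartiles of the libraries lay between 1905 and 1982.25. The summed values of miR-34a deficient 1 came to 1.01e+08, while those of the other libraries lay between 4.53e+07 and 6.51e+07. The RNA is from whole tumours, in which fewer cells of a type and less RNA per cell cannot be told apart. All 6 epithelial markers (Epcam, Cdh1, Krt8, Krt18, Vil1 and Cdx2) were above 0 in every library. Other run codes stand in the library names of miR-34a deficient 1 and p53 deficient 1 than in the other 10. Genes of the Y chromosome (4 genes, averaged on the log2 scale) stood at 0 in miR-34a deficient 1 and wt 1, between 0.25 and 0.79 in double deficient tumours, and at least 2.77 in the other 7 libraries. The p53 deficient libraries stood at 3.73, 5.21 and 6.98. In double deficient against p53 deficient tumours, genotype and Y-linked level therefore cannot be told apart for any gene. Within the genotypes, 1 direction of variation is absent from the deposited values, and 47.2% of its squared weight lies on double deficient 3, so the spread of the double deficient group may be understated.

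Libraries wt 3 and p53 deficient 2 stood apart in the interferon response genes. Of the 38 genes, 21 had their highest value of all 12 libraries in wt 3 and 13 in p53 deficient 2; of all genes tested, 10.0% had it in wt 3 and 12.4% in p53 deficient 2. The other 4 were Gbp4, Igtp and Iigp1, highest in p53 deficient 1, and Usp18, highest in miR-34a deficient 3. The median gene of the set lay 0.87 above its mean over the 12 libraries in p53 deficient 2 and 1.18 above it in wt 3, on the log2 scale. In the other 10 libraries this median lay between -0.56 and 0.13. Within the wt group, wt 3 was the highest library for 37 of 38 genes (32.9% of all genes tested), and within the p53 deficient group p53 deficient 2 was the highest for 30 (34.3%). The lowest value of the 12 libraries fell on p53 deficient 3 for 18 of the 38 genes (12.7% of all genes tested) and on wt 2 for 7 (6.76%). The p53 deficient and wt groups thus each held a high and a low library. By the median, however, wt 2 (-0.39) lay above both p53 deficient 3 (-0.56) and miR-34a deficient 3 (-0.49). The median SD within genotypes was 0.74 over the 38 genes, against 0.41 over all genes tested, and 92.1% of the 38 exceeded that median of all genes.

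**Figure D1:**
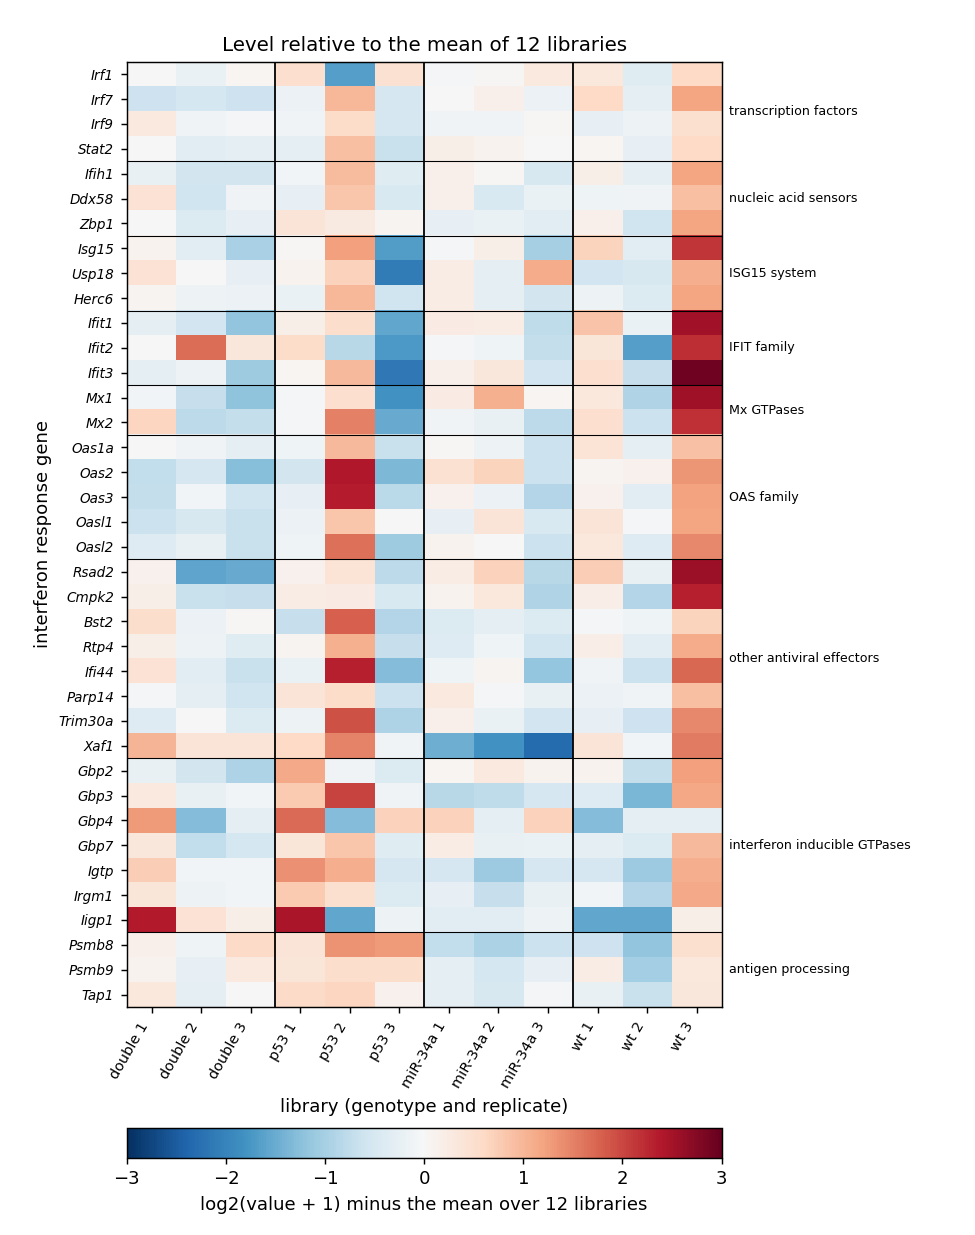
Level of each of the 38 interferon response genes (rows, grouped by role) in each of the 12 libraries (columns, double deficient, p53 deficient, miR-34a deficient and wt), as log2(value + 1) minus the gene's mean over the 12 libraries. The columns of p53 deficient 2 and wt 3 are red for most genes, and Xaf1 is blue in all 3 miR-34a deficient libraries.

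The 2 libraries differed in which roles stood highest in them. The IFIT and Mx genes were highest in wt 3, all 5 of 5, whereas 4 of 5 OAS genes and all 3 antigen processing genes were highest in p53 deficient 2. For the antigen processing genes, however, another p53 deficient library was close behind. Psmb8 stood at 687 in p53 deficient 2 and 647 in p53 deficient 3, and Psmb9 at 201 and 199. Tap1 stood at 443 in p53 deficient 2 and 422 in p53 deficient 1. In wt 3 the furthest above their means were Ifit3 (2.92), Rsad2 (2.56), Mx1 (2.54) and Ifit1 (2.53, all log2). In p53 deficient 2 they were Oas2 (2.40), Oas3 (2.35), Ifi44 (2.34) and Gbp3 (2.02). A few genes lay below their means in p53 deficient 2, among them Irf1 (-1.65), Iigp1 (-1.56), Gbp4 (-1.30) and Ifit2 (-0.83). Genes with an ISRE core in the promoter window had a median deviation of 0.96 in p53 deficient 2 and of 1.17 in wt 3 (16 genes), and those without had 0.82 and 1.19 in the same libraries (13 genes). In wt 3 the medians with and without the core were close to each other.

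Markers of other cell types were set beside these 2 libraries. The summed value of Ptprc, Coro1a and Laptm5, which mark leukocytes at large, was 801 in p53 deficient 2 and 1112 in wt 3, the lowest of the 12, against 1165 to 3656 elsewhere. By single marker, p53 deficient 3 lay below wt 3 for Ptprc (141 against 157) and Coro1a (188 against 231). For Laptm5, double deficient 2 lay below wt 3 (714 against 724). The sum of 7 T and NK cell markers was 31 in p53 deficient 2 and 34 in wt 3, against 55 to 172 elsewhere, with 3 of the 7 at 0 in the first of these and 2 in the second. The sum of 3 B and plasma cell markers was 100 in p53 deficient 2 and 624 in wt 3, against 94 to 538 elsewhere. In wt 3, 621 of it came from Jchain. The sum of 6 macrophage and monocyte markers was 5933 in p53 deficient 2 and 4813 in wt 3, within the range of 4225 to 8607 of the other 10. Most of it was Cd14. In p53 deficient 2, Csf1r (317) and C1qa (455) were lowest of the 12, while Cd68 (96) and Adgre1 (279) lay within the range of the other libraries. In wt 3, Cd68 (51) was lowest of the 12. Csf1r (365), C1qa (536), Adgre1 (191) and C1qb (362) lay toward the low end there, and Cd14 (3308) did not. The sum of 4 neutrophil markers was 13576 in p53 deficient 2 and 4723 in wt 3, against 2153 to 11082 elsewhere. Of the highest sum, 13517 came from Ly6g alone. The other 3 neutrophil markers were among the lowest of the 12 libraries in p53 deficient 2, with S100a8 at 12, S100a9 at 24 and Csf3r at 23, and in wt 3 they stood at 42, 26 and 20. The part of any of these cell types in the values of the 2 libraries was not tested.

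Differences between genotypes were tested with limma on log2(value + 1) over all 21322 genes, with Benjamini-Hochberg adjustment over all of them, and are given as log2 differences ± SE with 3 libraries per genotype; a gene is called changed at an adjusted p under 0.05. Of the 38 genes, 1 was called changed in 1 of 6 comparisons. This was Xaf1, which was higher in double deficient than in miR-34a deficient tumours.

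In double deficient against wt tumours, 0 of 38 genes were called by limma, against 0.802% of all genes tested. At an unadjusted p under 0.05, 0 were higher (7.19% of all genes) and 4 lower (8.08%). The values of 4 genes did not overlap between the groups, all lower in double deficient tumours, where 19.8% of all genes did not overlap. The median difference of the 38 genes was -0.46, against 0.02 for all genes tested, and without wt 3 it was -0.01. The lean of the set below wt therefore rested on wt 3. Without wt 2 it was -0.72, and 11 genes passed the unadjusted threshold; 7 did without p53 deficient 2.

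In p53 deficient against wt tumours, 0 of 38 genes were called by limma, against 0.0234% of all genes. Unadjusted p was under 0.05 for 2 that were higher (6.69% of all genes) and 0 that were lower (8.62%), and 1 did not overlap, against 16.2% of all genes. The median difference of the 38 genes was -0.15 and that of all genes was -0.04. Without wt 3 the median of the set was 0.21, without p53 deficient 3 it was 0.25, and without p53 deficient 2 it was -0.61, so its sign was set by which library was left out. The unadjusted threshold was passed by 11 genes when p53 deficient 2 was left out, by 6 for wt 2, by 5 for wt 3, by 4 for p53 deficient 3, and by 1 for p53 deficient 1, double deficient 3 or any 1 of the miR-34a deficient libraries.

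In miR-34a deficient against wt tumours, 0 of 38 genes were called by limma, against 0.0375% of all genes. Of the 38, 0 were higher at an unadjusted p under 0.05 (4.61% of all genes) and 1 was lower (1.48%), and 2 did not overlap, Bst2 and Xaf1, against 10.1% of all genes. Differences lay below 0 for 35 of 38 genes, with a median of -0.47 against 0.03 for all genes tested. Without wt 3 the median was 0.08. The number past the unadjusted threshold was 10 without wt 2 and 2 without miR-34a deficient 2.

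In double deficient against miR-34a deficient tumours, 1 of 38 genes was called by limma (Xaf1, higher), against 0.905% of all genes. At an unadjusted p under 0.05, 2 were higher (7.47% of all genes) and 0 lower (10.6%). The values of 14 genes did not overlap, 9 higher and 5 lower, against 27.3% of all genes. The median difference was -0.09, beside -0.06 for all genes. The 9 higher were Ifit2, Bst2, Xaf1, Gbp3, Igtp, Irgm1, Iigp1, Psmb8 and Psmb9, and the 5 lower were Irf7, Stat2, Mx1, Oasl1 and Gbp2. Only 1 gene passed the unadjusted threshold without miR-34a deficient 1, miR-34a deficient 2, double deficient 1 or double deficient 3.

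In double deficient against p53 deficient tumours, 0 of 38 genes were called by limma, against 0.605% of all genes. Of the 38, 0 were higher at an unadjusted p under 0.05 (8.05% of all genes) and 1 was lower (7.08%), and 4 did not overlap, against 19.6% of all genes. The 4 were Irf7, Zbp1, Oasl1 and Psmb9, all lower in double deficient tumours. The median difference was -0.41, against 0.05 for all genes, and 0.03 without p53 deficient 2. The number past the unadjusted threshold was 5 without p53 deficient 3, 3 without p53 deficient 1, 2 without wt 2 or wt 3, and 0 without any 1 of the double deficient libraries. In this comparison the genotypes also differ in every library in their Y-linked level, as given above.

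The interaction of the 2 deletions asks whether the effect of both together departs from the sum of the single ones on the log2 scale. It was called for 0 of 38 genes by limma, against 0.0234% of all genes. At an unadjusted p under 0.05, 1 was higher (3.26% of all genes), Xaf1, and 0 were lower (4.63%); 3 genes passed without p53 deficient 2 and 2 without wt 2. The median over the 38 genes was 0.06 beside 0.01 for all genes, and -0.46 without wt 3. The comparisons share libraries with one another, wt and double deficient tumours each entering several of them.

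**Figure D2:**
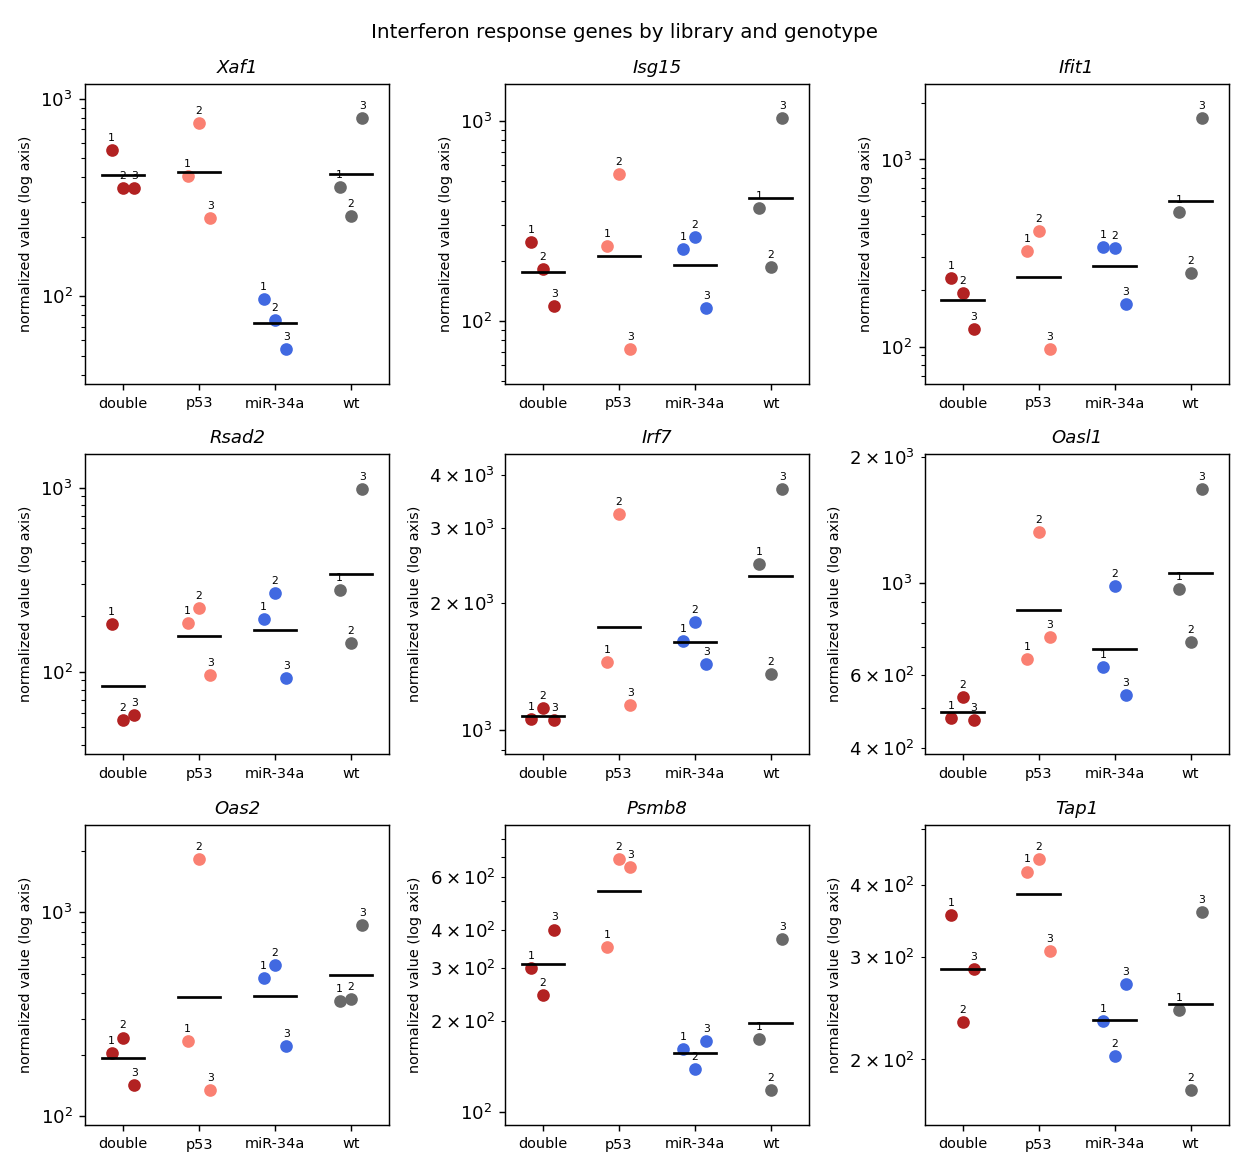
Normalized value (log axis) of 9 interferon response genes in each library, by genotype; numbers are replicate numbers and bars are back-transformed means of log2(value + 1). The 3 miR-34a deficient libraries lie below all others for Xaf1, at 54 to 97 against 250 or more, while wt 3 and p53 deficient 2 lie above the rest of their groups in most panels.

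Xaf1, an interferon-induced partner of the apoptosis inhibitor XIAP, departed from the rest of the set. Its values were 553, 353 and 353 in double deficient tumours, 408, 756 and 250 in p53 deficient tumours, 97, 76 and 54 in miR-34a deficient tumours, and 357, 255 and 797 in wt tumours. All 3 miR-34a deficient libraries were below the other 9, which overlapped one another. Xaf1 was higher in double deficient than in miR-34a deficient tumours by 2.46 ± 0.47 (limma adjusted p = 0.0375). This call was lost when any 1 of the double deficient or miR-34a deficient libraries, or wt 1, was left out (adjusted p between 0.0578 and 0.151), with the run code (0.0814), the Y-linked level (0.0985) or the missing direction (0.0807) as a covariate, without both libraries of the other run code (0.0889), with no trend in the prior variance (0.0609) and with the replicate number as a block (0.0690, all limma adjusted p). The difference itself stayed between 2.24 and 2.71 in all 28 alternatives. Between miR-34a deficient and wt tumours the difference was -2.49 ± 0.47, which did not pass over all genes (limma unadjusted p = 0.000222, adjusted p = 0.158). The interaction was 2.43 ± 0.66 (limma adjusted p = 0.427). Between double deficient and wt tumours the difference was -0.03 ± 0.47, and between p53 deficient and wt tumours it was 0.03 ± 0.47.

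Xaf1 also followed the 2 libraries that stood apart, being highest in wt 3 and next highest in p53 deficient 2. Measured against the mean log2 level of the other 37 genes of the same library, it lay 0.90 to 1.10 above in double deficient tumours, 0.55 to 0.90 above in p53 deficient tumours and 0.50 to 0.66 above in wt tumours. In miR-34a deficient tumours it lay 1.25 to 1.73 below that mean (-1.25, -1.53 and -1.73). The other 37 genes averaged 7.86, 7.79 and 7.51 in these 3 libraries on the log2 scale, within the range of 7.24 to 9.14 of the other 9. The median deviation of the 38 genes from their own means over the 12 libraries was 0.02, -0.14 and -0.49 in the same 3 libraries, and Xaf1 was lowest in the third of them. Xaf1 lies at chr11:72301629-72313733 (GRCm38, plus strand), 2.71 Mb from Trp53.

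**Figure D3:**
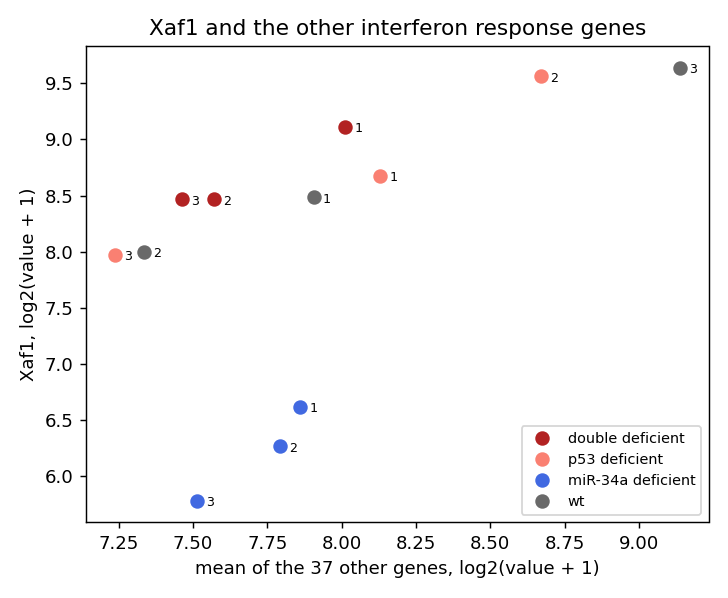
Xaf1 (vertical axis) against the mean of the 37 other interferon response genes (horizontal axis), both as log2(value + 1), 1 point per library with its replicate number. The 9 double deficient, p53 deficient and wt libraries lie 0.50 to 1.10 above the mean of the other genes, and the 3 miR-34a deficient libraries lie 1.25 to 1.73 below it.

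Among the transcription factors, Irf7, which amplifies type I interferon production, stood at 1065, 1128 and 1059 in double deficient tumours, 1450, 3245 and 1147 in p53 deficient tumours, 1628, 1805 and 1435 in miR-34a deficient tumours, and 2468, 1359 and 3714 in wt tumours. The 3 double deficient libraries were the lowest of the 12 and differed little from one another. The difference from wt was -1.10 ± 0.39 and did not pass over all genes (limma adjusted p = 0.207); without wt 3 it was -0.76.
Irf1, a factor induced mainly by type II interferon, had 1322, 1173 and 1392 in double deficient tumours, 1886, 427 and 1852 in p53 deficient tumours, 1302, 1381 and 1649 in miR-34a deficient tumours, and 1657, 1033 and 2040 in wt tumours. The 4 groups overlapped, and the lowest library was p53 deficient 2, where most of the other genes were high. The promoter stretch of Irf1 shown above carries a GAS core.
Irf9, a DNA-binding part of the complex with Stat2, had the highest mean value of its role (values are not known to be scaled to gene length) and varied little, with 2169, 1635 and 1700 in double deficient tumours, 1645, 2580 and 1254 in p53 deficient tumours, 1639, 1646 and 1803 in miR-34a deficient tumours, and 1486, 1592 and 2464 in wt tumours. Its partner Stat2 had 732, 577 and 599 in double deficient tumours, 598, 1372 and 460 in p53 deficient tumours, 829, 782 and 736 in miR-34a deficient tumours, and 765, 612 and 1099 in wt tumours. Both were highest in p53 deficient 2 and lowest in p53 deficient 3. Part of Irf9 overlaps exons of Rnf31 on the same strand, and how such reads were assigned is not given in the sources used here.

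Of the nucleic acid sensors, Ifih1, which detects long double-stranded RNA, had 701, 558 and 560 in double deficient tumours, 769, 1589 and 639 in p53 deficient tumours, 915, 840 and 581 in miR-34a deficient tumours, and 922, 678 and 1853 in wt tumours. The groups overlapped, with the highest values in wt 3 and p53 deficient 2. Ddx58, which encodes the RNA sensor RIG-I, ranged from 355 to 1018, and Zbp1, a sensor of Z-form nucleic acids, from 212 to 732. For Ddx58 and Zbp1 too the highest library was wt 3.

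Within the ISG15 system, Isg15, the ubiquitin-like modifier itself, had 248, 182 and 118 in double deficient tumours, 238, 545 and 72 in p53 deficient tumours, 228, 262 and 116 in miR-34a deficient tumours, and 369, 186 and 1033 in wt tumours. The groups overlapped, and p53 deficient 2 and p53 deficient 3 lay further apart than any pair of genotype means. The difference between double deficient and wt tumours was -1.24 ± 0.73 (limma adjusted p = 0.467). Isg15 lies 6.13 Mb from Mir34a on chromosome 4.
Usp18, which removes ISG15 and dampens signalling at the type I receptor, had 1039, 770 and 653 in double deficient tumours, 824, 1241 and 179 in p53 deficient tumours, 898, 636 and 1657 in miR-34a deficient tumours, and 521, 556 and 1652 in wt tumours. It was the 1 gene whose highest library was miR-34a deficient 3, with wt 3 close behind. Herc6, a ligase for ISG15 in mice, ranged from 101 to 352, with its highest value in wt 3.

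The IFIT genes encode proteins that bind viral RNA and block its translation. Ifit1 had 232, 193 and 125 in double deficient tumours, 324, 417 and 97 in p53 deficient tumours, 341, 337 and 169 in miR-34a deficient tumours, and 522, 248 and 1659 in wt tumours. All 3 double deficient values were below all 3 wt values, by -1.75 ± 0.68 on the log2 scale, which did not pass over all genes (limma adjusted p = 0.248) and was -1.01 without wt 3. Ifit2 had 405, 1296 and 512 in double deficient tumours, 592, 229 and 123 in p53 deficient tumours, 390, 372 and 247 in miR-34a deficient tumours, and 525, 128 and 1899 in wt tumours. It differed from the rest of its family in double deficient 2, where it was the second highest of the 12 libraries, while Ifit1 and Ifit3 stood at 193 and 59 there. Ifit3 lay between 14 and 129 outside wt 3, where it was 502.

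The Mx genes encode antiviral GTPases. Mx1 had 155, 102 and 71 in double deficient tumours, 158, 232 and 46 in p53 deficient tumours, 195, 345 and 171 in miR-34a deficient tumours, and 206, 88 and 963 in wt tumours. Double deficient and miR-34a deficient values did not overlap, with a difference of -1.11 ± 0.79 (limma adjusted p = 0.490). Mx2 lay between 10 and 88 outside wt 3, where it was 142.

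The OAS family synthesizes the second messenger that activates RNase L, except for Oasl1. Oas2 had 205, 243 and 142 in double deficient tumours, 234, 1819 and 134 in p53 deficient tumours, 475, 551 and 220 in miR-34a deficient tumours, and 365, 377 and 868 in wt tumours. In p53 deficient 2 it stood above every other library, and the double deficient values lay below all 3 wt values (-1.35 ± 0.78, limma adjusted p = 0.458). Oas1a, with the highest mean value of the family, had 1074, 1007 and 903 in double deficient tumours, 993, 2147 and 681 in p53 deficient tumours, 1119, 976 and 697 in miR-34a deficient tumours, and 1442, 889 and 1995 in wt tumours. Its groups overlapped in all comparisons.
Oasl1, which in mice restrains translation of Irf7, had 472, 530 and 468 in double deficient tumours, 655, 1319 and 738 in p53 deficient tumours, 628, 980 and 538 in miR-34a deficient tumours, and 966, 719 and 1680 in wt tumours. Like Irf7, it had its 3 lowest values in the 3 double deficient libraries. The difference was -1.10 ± 0.35 from wt (limma unadjusted p = 0.00811, adjusted p = 0.163), -0.81 ± 0.35 from p53 deficient tumours (limma adjusted p = 0.295) and -0.50 ± 0.35 from miR-34a deficient tumours (limma adjusted p = 0.476). Without wt 3 the difference from wt was -0.77, and without p53 deficient 2 that from p53 deficient tumours was -0.51. Oas3 and Oasl2 ranged from 119 to 1121 and from 246 to 1618, both highest in p53 deficient 2.

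Of the other antiviral effectors, Rsad2 (viperin), which makes a chain-terminating nucleotide, had 182, 55 and 58 in double deficient tumours, 183, 222 and 96 in p53 deficient tumours, 193, 269 and 93 in miR-34a deficient tumours, and 279, 143 and 985 in wt tumours. Its difference between double deficient and wt tumours was the largest of the 38 in size in that comparison, -2.01 ± 0.70, with overlapping groups (limma adjusted p = 0.202), and it was -1.25 without wt 3. Cmpk2, its neighbour on chromosome 12 and a nucleotide kinase, ranged from 216 to 507 outside wt 3 and was 2030 there. Parp14, an ADP-ribosyltransferase with the highest mean value of this role, had 1023, 880 and 698 in double deficient tumours, 1381, 1549 and 675 in p53 deficient tumours, 1292, 1025 and 901 in miR-34a deficient tumours, and 939, 989 and 1990 in wt tumours.
In Parp14 the groups overlapped in all comparisons. Bst2 (tetherin), which holds budding virus at the cell surface, was 545, 331 and 387 in double deficient tumours and 280, 307 and 281 in miR-34a deficient tumours, which did not overlap (0.51 ± 0.57, limma adjusted p = 0.677). Its wt values were 366, 344 and 596. Rtp4, Ifi44 and Trim30a, the last an interferon-induced TRIM protein, were highest in wt 3 or p53 deficient 2 and ranged from 257 to 903, from 121 to 1520 and from 56 to 407, in that order.

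The interferon inducible GTPases attack the vacuoles of intracellular pathogens and respond strongly to type II interferon. Gbp2, with the highest mean value of them, had 347, 275 and 210 in double deficient tumours, 887, 375 and 302 in p53 deficient tumours, 419, 497 and 431 in miR-34a deficient tumours, and 437, 246 and 942 in wt tumours. Double deficient values were below all miR-34a deficient values (-0.72 ± 0.48, limma adjusted p = 0.457). Iigp1 had 45, 11 and 9 in double deficient tumours, 47, 2 and 7 in p53 deficient tumours, 6, 6 and 7 in miR-34a deficient tumours, and 2, 2 and 9 in wt tumours. Its difference between double deficient and wt tumours was 1.98 ± 0.92, with overlapping groups (limma adjusted p = 0.339). Gbp4 was near 0 throughout, with 5, 0 and 1 in double deficient tumours, 7, 0 and 3 in p53 deficient tumours, 3, 1 and 3 in miR-34a deficient tumours, and 0, 1 and 1 in wt tumours.
Igtp reached no more than 10 in any library. Gbp4 shares exonic sequence with Gbp8 and Gbp9, and Igtp with Irgm2, on the same strand, so reads of these genes may have been split or dropped in counting. Gbp3, Gbp7 and Irgm1 ranged from 89 to 949, from 30 to 100 and from 144 to 585, in that order.

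The antigen processing genes lie side by side on chromosome 17 in the major histocompatibility complex and all 3 had differences from wt above 0, 0.20 to 0.64 in double deficient and 0.63 to 1.45 in p53 deficient tumours, none of which passed over all genes. For all 3 the lowest of the 12 libraries was wt 2. Psmb8, a catalytic subunit of the immunoproteasome, had 300, 244 and 402 in double deficient tumours, 353, 687 and 647 in p53 deficient tumours, 161, 139 and 172 in miR-34a deficient tumours, and 174, 118 and 373 in wt tumours. All double deficient and p53 deficient values were above all miR-34a deficient ones, while wt 3 reached into their range. The difference between p53 deficient and wt tumours was 1.45 ± 0.40 (limma unadjusted p = 0.00374, adjusted p = 0.146), and that between double deficient and miR-34a deficient tumours was 0.97 ± 0.40 (limma adjusted p = 0.227). Without wt 3 the difference of p53 deficient from wt tumours was 1.90, and without p53 deficient 2 it was 1.27.
Tap1, a subunit of the peptide transporter, had 355, 232 and 286 in double deficient tumours, 422, 443 and 308 in p53 deficient tumours, 233, 203 and 270 in miR-34a deficient tumours, and 243, 177 and 359 in wt tumours. The p53 deficient values overlapped with wt through wt 3 alone (0.63 ± 0.28, limma adjusted p = 0.319), and without wt 2 the difference was 0.39. Psmb9, another immunoproteasome subunit, had 180, 201 and 199 in p53 deficient tumours and 161, 68 and 174 in wt tumours, which did not overlap (0.63 ± 0.33, limma adjusted p = 0.397). Psmb9 and Tap1 share 212 exonic bases on opposite strands, and Psmb8 shares 498 with the antisense gene Gm20496; whether counting used strand is not given in the sources used here, so reads of these pairs cannot be told apart.

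Upstream and beside the set, 76 further genes of the interferon pathway were listed, of which 68 were in the table and 64 were tested. By limma, 1 of the 64 was called, Ifnlr1, lower in double deficient than in miR-34a deficient tumours (0.905% of all genes were called there). In the other 5 comparisons 0 were called, against 0.0234% to 0.802% of all genes. At an unadjusted p under 0.05, 4 of the 64 were higher and 4 lower in double deficient against wt tumours (7.19% and 8.08% of all genes), 4 higher and 4 lower in p53 deficient against wt tumours (6.69% and 8.62%), and 0 higher and 0 lower in miR-34a deficient against wt tumours (4.61% and 1.48%). In double deficient tumours 6 were higher and 3 lower against miR-34a deficient tumours (7.47% and 10.6% of all genes), and 7 were higher and 6 lower against p53 deficient tumours (8.05% and 7.08%). In the interaction 1 was higher and 2 were lower (3.26% and 4.63%). The medians of the 64 genes lay between -0.05 and 0.11 in the 6 comparisons.

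Of the ligands, Ifng, the type II interferon, was 0 in 11 of 12 libraries and 1 in p53 deficient 3. Type I and type III interferon genes were not analysed here: of 9 ligands listed, only Ifng was among the gene symbols of the table. Ifnlr1, the receptor chain specific for type III interferon, had 1889, 1906 and 1393 in double deficient tumours, 2873, 2614 and 2271 in p53 deficient tumours, 3954, 4472 and 2748 in miR-34a deficient tumours, and 2768, 4203 and 3741 in wt tumours. All 3 double deficient values were below the other 9. Ifnlr1 fell by 1.09 ± 0.22 on the log2 scale in double deficient against miR-34a deficient tumours (difference -1.09, limma adjusted p = 0.0466). The differences from wt (-1.04 ± 0.22, limma adjusted p = 0.0564) and from p53 deficient tumours (-0.59 ± 0.22, limma adjusted p = 0.234) did not pass. The call held in 11 of 28 alternatives, with limma adjusted p between 0.0336 and 0.232. It was lost without any 1 of the double deficient or p53 deficient libraries. Leaving out miR-34a deficient 1 or 2, or wt 2 or 3, also lost it. As a covariate, the Y-linked level (0.0881), the run code (0.103) or the missing direction (0.0994) removed the call too. So did dropping miR-34a deficient 1 and p53 deficient 1 together (0.138), or wt 3 and p53 deficient 2 together (0.0541). The other losses came with no trend in the prior variance (0.0793) and with only the compared groups fitted (0.0668, all limma adjusted p).

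**Figure D4:**
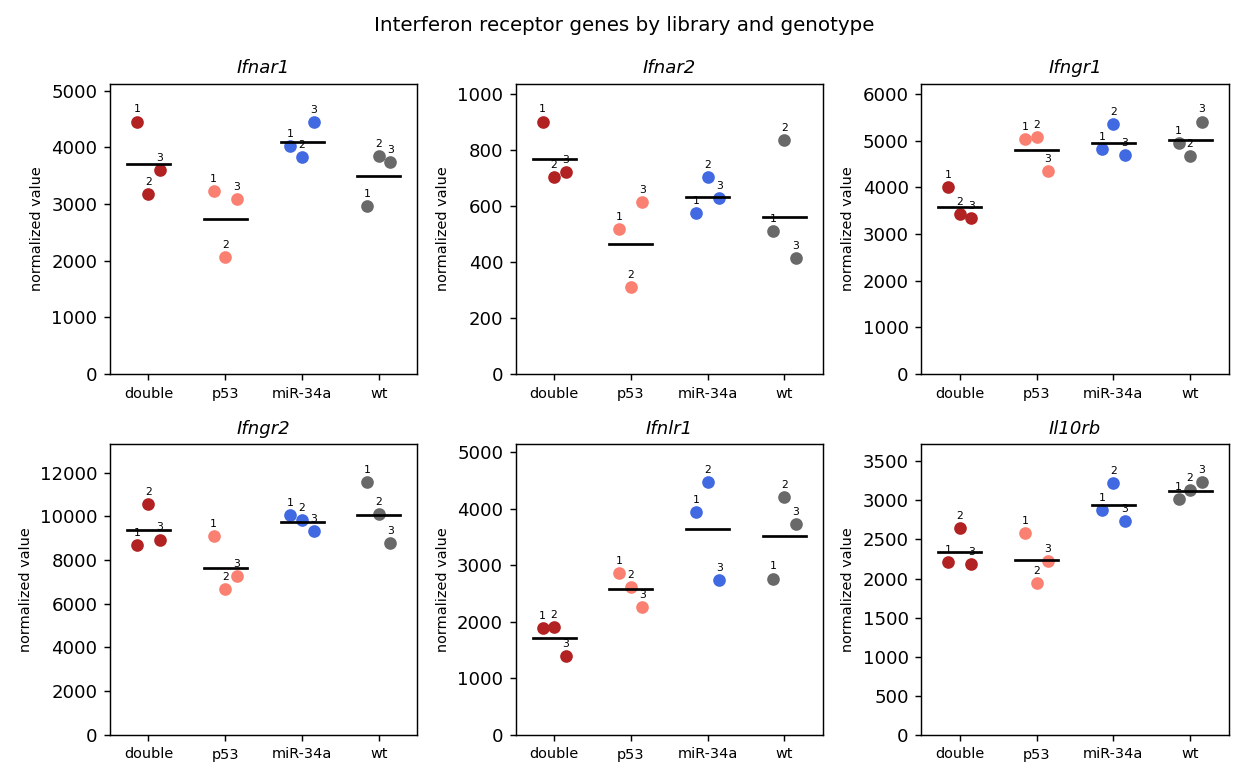
Normalized value (linear axis from 0) of the 6 interferon receptor genes in each library, by genotype; numbers are replicate numbers and bars are back-transformed means of log2(value + 1). For Ifnlr1 and Ifngr1 the 3 double deficient libraries lie below the other 9, at 1393 to 1906 and at 3343 to 4020.

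Its partner Il10rb, shared with the IL-10 receptor, had 2217, 2644 and 2182 in double deficient tumours, 2582, 1948 and 2227 in p53 deficient tumours, 2877, 3220 and 2742 in miR-34a deficient tumours, and 3013, 3137 and 3232 in wt tumours. The double deficient and p53 deficient libraries were below the miR-34a deficient and wt ones without overlap. The difference from wt was -0.42 ± 0.14 in double deficient tumours (limma adjusted p = 0.181) and -0.48 ± 0.14 in p53 deficient tumours (limma adjusted p = 0.156). Ifngr1, the ligand-binding chain of the type II receptor, had 4020, 3431 and 3343 in double deficient tumours, 5048, 5075 and 4353 in p53 deficient tumours, 4828, 5353 and 4701 in miR-34a deficient tumours, and 4959, 4684 and 5414 in wt tumours. Again the 3 double deficient libraries were the lowest, with a difference from wt of -0.48 ± 0.12 (limma adjusted p = 0.104). Ifngr2 ranged from 6677 to 11559, Ifnar1 from 2070 to 4456 and Ifnar2 from 312 to 903. Of these 3 genes, the lowest library was p53 deficient 2 each time.

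Irf2, a factor that competes with Irf1 at the ISRE, had 3581, 3990 and 3587 in double deficient tumours, 5494, 6778 and 4533 in p53 deficient tumours, 3936, 3644 and 3431 in miR-34a deficient tumours, and 3994, 3488 and 4153 in wt tumours. All 3 p53 deficient libraries were above the other 9. The differences were 0.51 ± 0.15 for p53 deficient against wt tumours (limma adjusted p = 0.161) and -0.57 ± 0.15 for double deficient against p53 deficient tumours (limma adjusted p = 0.114).

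Among the inhibitors, Socs1, which blocks the receptor kinases, had 728, 563 and 603 in double deficient tumours, 284, 119 and 445 in p53 deficient tumours, 221, 410 and 220 in miR-34a deficient tumours, and 327, 307 and 288 in wt tumours. The 3 double deficient libraries were above all others, and no difference passed over all genes: 1.03 ± 0.41 from wt (limma adjusted p = 0.259), 1.34 ± 0.41 from p53 deficient tumours (limma adjusted p = 0.162) and 1.21 ± 0.41 from miR-34a deficient tumours (limma adjusted p = 0.159). Without p53 deficient 2 the difference from p53 deficient tumours was 0.82 (limma adjusted p = 0.304). Ptpn2, a phosphatase that acts on the Jak kinases, had 2167, 1985 and 2297 in double deficient tumours and 1779, 1404 and 1427 in miR-34a deficient tumours, without overlap (0.49 ± 0.16, limma adjusted p = 0.140). Ptpn6, another such phosphatase, had 1857, 1144 and 1247 in double deficient tumours and 1039, 646 and 742 in p53 deficient tumours (0.80 ± 0.23, limma adjusted p = 0.141). Its values were 1426, 1352 and 1546 in miR-34a deficient tumours and 1368, 1407 and 1009 in wt tumours. Against wt, Ptpn6 differed by -0.65 ± 0.23 in p53 deficient tumours (limma adjusted p = 0.219) and by 0.15 ± 0.23 in double deficient tumours (limma adjusted p = 0.812). It is abundant in blood cells, and the sum of the 3 leukocyte markers was 3656, 1165 and 1709 in double deficient tumours and 1517, 801 and 1313 in p53 deficient tumours. The part of leukocytes in the Ptpn6 differences was not tested.

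Of the other sensors and induced genes, Tmem173, which encodes the DNA-signalling adaptor STING, had 9200, 4931 and 5384 in double deficient tumours, 3858, 2686 and 3054 in p53 deficient tumours, 3866, 4323 and 4954 in miR-34a deficient tumours, and 2314, 4378 and 3558 in wt tumours. Double deficient values did not overlap with p53 deficient values (0.98 ± 0.27, limma adjusted p = 0.132) or with wt values (0.92 ± 0.27, limma adjusted p = 0.150). Mb21d1, the DNA sensor cGAS, had 253, 249 and 264 in miR-34a deficient tumours and 258, 349 and 672 in wt tumours (-0.62 ± 0.35, limma adjusted p = 0.898). Isg20, an exonuclease, had 272, 396 and 213 in miR-34a deficient tumours and 403, 350 and 587 in wt tumours (-0.62 ± 0.29, limma adjusted p = 0.840). In both genes the wt values ran highest in wt 3.
Cxcl9, a chemokine induced by type II interferon, was low throughout, with 58, 25 and 22 in double deficient tumours, 51, 2 and 40 in p53 deficient tumours, 17, 25 and 12 in miR-34a deficient tumours, and 3, 6 and 4 in wt tumours. Its wt values were below all double deficient and all miR-34a deficient values, and in contrast to most of the 38 genes it was not high in wt 3 or p53 deficient 2. The difference between double deficient and wt tumours was 2.66 ± 0.89 (limma adjusted p = 0.190). It passed in 1 of 27 alternatives, without p53 deficient 2 (limma adjusted p = 0.0271); over the others adjusted p reached 0.403, and with log2(value + 10) the difference was 1.57. Tap2, the other subunit of the peptide transporter, had 383, 427 and 526 in double deficient tumours, 558, 940 and 710 in p53 deficient tumours, 405, 316 and 431 in miR-34a deficient tumours, and 422, 341 and 519 in wt tumours. As for Irf2, the 3 p53 deficient libraries were the highest of the 12, with differences of 0.77 ± 0.24 for p53 deficient against wt tumours (limma adjusted p = 0.180) and -0.70 ± 0.24 for double deficient against p53 deficient tumours (limma adjusted p = 0.209).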

How the data were processed

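Per the labels, RNA was purified from the tumours with a QIAGEN kit and sequenced after standard Illumina library preparation. The authors deposited 1 table of score values: expression per gene symbol, normalized in a way the sources used here do not give and rounded to whole numbers. The submitters' processing notes name build mm10; aligner, counting and annotation are likewise not given there. Depth per library is unknown.

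Values were taken as log2(value + 1), without rescaling; differences on this scale understate those of low genes. Genes whose mean reached 1 entered limma 3.58.1 (R 4.3.3), with a trend in the prior variance, 1 mean per genotype and 8 residual degrees of freedom. Deviations from genotype means spanned 7 dimensions in place of 8: over 9791 genes averaging 500 or more, the seventh singular value was 32.2 and the eighth 0.179. The script was tested on simulated data.

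The genes and lists were chosen with earlier results of these data known. Values in every library are given for called genes, the 3 genes with the smallest p in each comparison, for each role the genes with the highest mean and the widest range of genotype means, and Xaf1, Stat2, Irf9, Irf7, Irf1 and Isg15; any other gene was named after its values were seen. Alternatives changed the pseudocount, filter, scaling, covariates, prior variance and libraries. The analysis without both wt 3 and p53 deficient 2 was added after seeing the data. Results of some pathway genes are not reported here.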

Additional observations from a re-analysis of the deposited data

How the results depend on the processing

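In double deficient against miR-34a deficient tumours the number of interferon response genes called was 1, and 0 with the replicate block, without miR-34a deficient 1 and p53 deficient 1 (the other run code), with run code, the Y-linked level or the missing direction as a covariate, and with no trend in the prior variance; leaving out 1 library at a time gave 0 to 1. The cause was not tested. The other 5 comparisons gave 0 calls in each alternative run, and no called difference reversed. Without both wt 3 and p53 deficient 2, an analysis chosen after seeing the data, Xaf1 passed with a limma adjusted p of 0.0140, and the median differences of the 38 genes were -0.01 for double deficient against wt, -0.15 for p53 deficient against wt, 0.08 for miR-34a deficient against wt, and 0.03 for double deficient against p53 deficient tumours. The median of all genes moved by less than 0.1 under each scaling.

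Over all genes tested, calls numbered 171 in double deficient against wt tumours (29 to 261 over the alternatives), 5 in p53 deficient against wt (1 to 88), 8 in miR-34a deficient against wt (4 to 12), 193 in double against miR-34a deficient (23 to 402), 129 in double against p53 deficient (7 to 294), and 5 in the interaction (1 to 10). The number of the 38 genes at an unadjusted p under 0.05 ranged, in that order, over 3 to 11, 1 to 11, 1 to 10, 1 to 7, 0 to 5 and 1 to 4.

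Replicate numbers were not taken as pairs. Of 18 same-number pairs of libraries, 4 correlated above 0.1 in their deviations from the genotype means. The highest were p53 deficient 3 with double deficient 3 (0.54) and miR-34a deficient 3 with double deficient 3 (0.37). On average, 4 of 12 libraries correlated best with those that bear their number. Whether replicate numbers mark a shared batch or pairing is not given in the sources used here. With the replicate number as a block, the calls over all genes were 102, 2, 6, 141, 141 and 3 in the order above. With 3 libraries per genotype and unknown depth, a difference that did not pass is not shown to be absent.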

Other observations

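Dhx58 and Sp100 of the pathway list, picked after their values were seen, followed the same libraries as the 38 genes. Others did not, such as Cd274 and Gbp8, whose lowest values of the 12 libraries were in p53 deficient 2 (47 and 137). How many genes of the list followed was not counted. Dhx58, which encodes the RNA sensor LGP2, had 203, 141 and 170 in double deficient tumours, 147, 744 and 121 in p53 deficient tumours, 157, 111 and 108 in miR-34a deficient tumours, and 170, 120 and 353 in wt tumours. Sp100, a nuclear body protein, had 240, 213 and 174 in double deficient tumours, 293, 783 and 180 in p53 deficient tumours, 313, 272 and 166 in miR-34a deficient tumours, and 231, 191 and 719 in wt tumours. In both genes p53 deficient 2 was the highest library and wt 3 the next.

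The interferon-induced transmembrane genes went the other way in p53 deficient 2, and they were low in p53 deficient 3 as well. Ifitm1 had 10659, 3065 and 3422 in double deficient tumours, 7226, 849 and 1611 in p53 deficient tumours, 6360, 7209 and 10933 in miR-34a deficient tumours, and 6468, 3063 and 2904 in wt tumours, with its lowest value in p53 deficient 2. Ifitm2 and Ifitm3, which restrict virus entry as Ifitm1 does, were also lowest there, at 9481 and 16616. For each of these genes p53 deficient 3 was the next lowest library, with Ifitm1 at 1611, Ifitm2 at 10857 and Ifitm3 at 21319. For double deficient against p53 deficient tumours the differences were 0.87 ± 0.39 for Ifitm2 (limma adjusted p = 0.328) and 0.88 ± 0.31 for Ifitm3 (limma adjusted p = 0.215). Without p53 deficient 2 they were 0.55 (limma adjusted p = 0.595) and 0.60 (limma adjusted p = 0.436). Each passed in 1 of 28 alternatives, without p53 deficient 1, at 1.41 (limma adjusted p = 0.0370) and 1.24 (limma adjusted p = 0.0474).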
